A study of Mus musculus with 2 samples.

Results

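The MLL methyltransferases, encoded by Kmt2a to Kmt2d, and the proteins found in their complexes but not in those of SET1 were followed by mRNA sequencing in CGR8, a mouse embryonic stem cell line grown without feeders in serum and leukaemia inhibitory factor. One library came from cells given a Set1a siRNA and 1 from cells given a negative control siRNA, each after repeated transfection over 72 hours. The comparison asks how targeting SET1A, a methyltransferase of histone H3 lysine 4, bears on expression across genes. Members were taken by gene name through the RefSeq accessions in the tables: 10 genes of 22421, carried by 14 listed transcripts, with 4 genes on the MLL1/MLL2 side (Kmt2a, Kmt2b, Men1 and Psip1) and 6 on the MLL3/MLL4 side (Kmt2c, Kmt2d, Ncoa6, Kdm6a, Paxip1 and Pagr1a). The list of names had 1700030K09Rik for the subunit PA1, but the annotation used here gives PA1 as a synonym of Pagr1a on mouse chromosome 7 and places 1700030K09Rik as a separate gene on chromosome 8. Pagr1a was therefore counted as the subunit, and 1700030K09Rik is given on its own.

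MLL-family enzymes methylate histone H3 lysine 4 from within large complexes built on a shared core of WDR5, RBBP5, ASH2L and DPY30. MLL1 and MLL2 act mainly at promoters and are joined by menin, the product of the tumour suppressor gene Men1, and by LEDGF, the chromatin reader encoded by Psip1. MLL3 and MLL4 act mainly at enhancers together with the nuclear receptor coactivator NCOA6, the histone H3 lysine 27 demethylase UTX from Kdm6a, the BRCT-domain protein PTIP from Paxip1, and PA1. SET1 complexes use the same core, so the genes below encode the parallel branches of one enzyme family.

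Of the 10 genes, 9 were slightly lower in the Set1a siRNA library and Men1 was higher, with a ratio of 1.31; of all 11788 genes compared, 48.8% were lower. Levels are in RPKM, reads scaled to transcript length and to library size. None of the 10 reached 2-fold, a size that 1.18% of all genes reached. Every difference is between 1 library and 1 library, without replicates and therefore without a p-value. The intervals given are exact 95% intervals for the number of reads and cover counting error only. In bulk RNA, fewer cells expressing a gene and less RNA per cell cannot be told apart.

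The RPKM values corresponded to about 6420000 reads in the Set1a siRNA library and 6660000 in the control siRNA library. Setd1a itself, the targeted gene, was at 11.97 RPKM in the Set1a siRNA library and 14.2 RPKM in the control siRNA library, a ratio of 0.846 (0.746 to 0.959). An interval entirely below 1 was found for 11.2% of all genes, and 13.1% of the 7922 genes that averaged 5 RPKM or more had a lower fold than Setd1a. All 6 embryonic stem cell markers were abundant in both libraries, at 83.7 to 740 RPKM with Set1a siRNA and 79.5 to 745 RPKM with control siRNA. Summed over 6 genes, fibroblast or feeder markers reached 13.2 RPKM with Set1a siRNA and 12.02 RPKM with control siRNA, with Col1a2 at 0 in both. Sums for primitive endoderm (4 genes), trophectoderm (3 genes) and neural (3 genes) markers were 2.03, 3.77 and 4.60 RPKM with Set1a siRNA, against 1.95, 2.55 and 4.17 RPKM with control siRNA. Cdx2 and Elf5, both trophectoderm markers, were at 0 in both. The primed epiblast and mesoderm sum (3 genes) was 18.7 RPKM with Set1a siRNA and 21.3 RPKM with control siRNA. Most of it came from 1 gene, at 17.6 and 20.7 RPKM in that order. Only this 1 of the 3 averaged at least 1 RPKM. The part of these markers in the differences below was not tested.

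The promoters of Men1, the one member that was higher, and of Kmt2a, whose protein menin joins, are shown because MLL1 and MLL2 carry CXXC domains that bind unmethylated CpG. Each window runs from 250 bases before to 50 bases after an annotated RefSeq start (GRCm38.p6), and capitals mark each CG pair, read the same on both strands.
Men1, chr19:6334729-6335028, plus strand: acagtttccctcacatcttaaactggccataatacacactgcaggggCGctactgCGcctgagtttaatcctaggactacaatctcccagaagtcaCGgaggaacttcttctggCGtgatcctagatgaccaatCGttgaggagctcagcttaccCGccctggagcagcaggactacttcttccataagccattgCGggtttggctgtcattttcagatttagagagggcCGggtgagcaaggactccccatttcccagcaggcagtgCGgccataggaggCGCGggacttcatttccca
Kmt2a, chr9:44881240-44881539, minus strand: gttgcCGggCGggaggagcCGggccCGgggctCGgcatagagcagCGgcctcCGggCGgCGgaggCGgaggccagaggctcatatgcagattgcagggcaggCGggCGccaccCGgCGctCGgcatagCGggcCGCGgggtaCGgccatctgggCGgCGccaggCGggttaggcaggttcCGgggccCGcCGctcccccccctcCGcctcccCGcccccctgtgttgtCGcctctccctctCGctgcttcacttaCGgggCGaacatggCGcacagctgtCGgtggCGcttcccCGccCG
The Men1 window held 11 CG pairs and the Kmt2a window 36. At least as many were found in 41.4% and 6.23% of the 32851 promoter windows of the table. The other 2 Men1 windows held 16 each. Of the 10 genes, 8 had a window, from 1 CG pair at Ncoa6 to 56 at Kmt2c, against a median of 7 over the table. These counts are a description and say nothing of which factors bind there.

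All 4 methyltransferase genes were lower with Set1a siRNA by less than counting error. Kmt2a on chromosome 9, needed to maintain Hox expression in development, was at 6.26 RPKM in the Set1a siRNA library and 6.47 RPKM in the control siRNA library, a ratio of 0.968 (0.869 to 1.08) from 661 and 708 reads. Kmt2b on chromosome 7, which deposits trimethylation at promoters held in a bivalent state in embryonic stem cells, was at 10.8 RPKM with Set1a siRNA and 10.9 RPKM with control siRNA, a ratio of 0.986 (0.879 to 1.11) from 585 and 615 reads. Both intervals include 1.

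On the enhancer branch, Kmt2c (MLL3) on chromosome 5 was at 10.4 RPKM in the Set1a siRNA library and 10.7 RPKM in the control siRNA library, a ratio of 0.965 (0.884 to 1.05) from 996 and 1070 reads. Kmt2d (MLL4) on chromosome 15, the longest of the transcripts, was at 7.46 RPKM with Set1a siRNA and 7.97 RPKM with control siRNA, a ratio of 0.937 (0.857 to 1.02) from 949 and 1050 reads. Over the 4 methyltransferase genes the lower bounds of the ratio lay between 0.857 for Kmt2d and 0.884 for Kmt2c.

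Summed, the 4 methyltransferase genes came to 34.9 RPKM with Set1a siRNA and 36.1 RPKM with control siRNA, a ratio of 0.966. Kmt2a made up 18.0% of that sum in the Set1a siRNA library and 17.9% in the control siRNA library. Kmt2b made up 30.9% and 30.3%, Kmt2c 29.7% and 29.7%, and Kmt2d 21.4% and 22.1%, in the same order of libraries. The ratio of Kmt2b to Kmt2a was 1.72 with Set1a siRNA and 1.69 with control siRNA, a change by a factor of 1.02 (0.870 to 1.19). The ratio of Kmt2d to Kmt2c was 0.720 with Set1a siRNA and 0.742 with control siRNA, a factor of 0.971 (0.857 to 1.10). Neither within-pair balance moved beyond counting error. As Setd1a was lower, each methyltransferase gene stood higher relative to it: Kmt2a to Setd1a was 0.523 with Set1a siRNA and 0.457 with control siRNA, a factor of 1.14 (0.969 to 1.35), and the factors for Kmt2b, Kmt2c and Kmt2d were 1.17 (0.983 to 1.38), 1.14 (0.979 to 1.33) and 1.11 (0.949 to 1.29). All 4 intervals include 1, and the pairs with Setd1a were chosen after its value was seen. The 4 factors share the same Setd1a values, so they are not 4 separate observations.

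**Figure D1:**
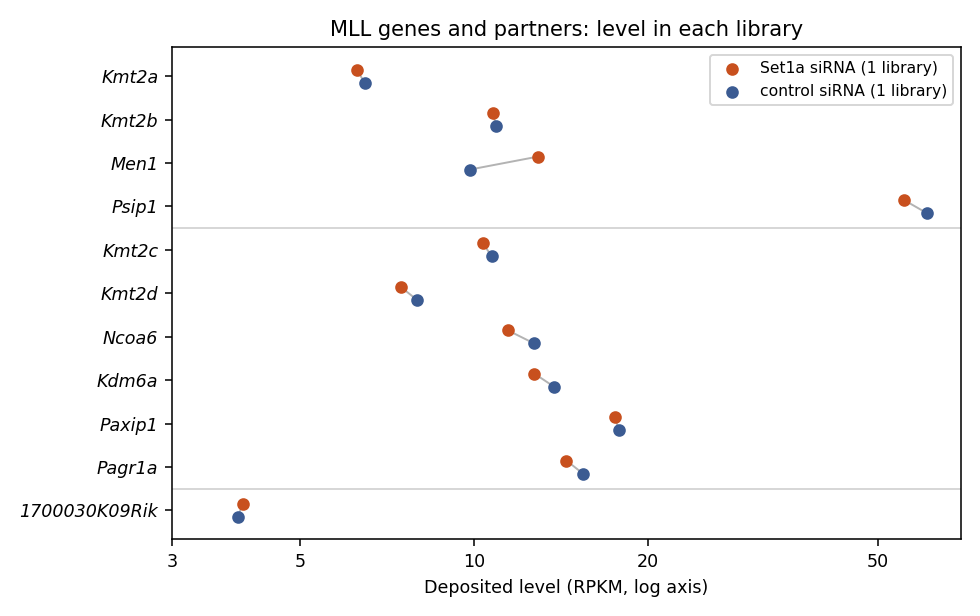
Deposited level in RPKM, on a log axis, of the 10 MLL genes and of 1700030K09Rik, 1 point for each library with Set1a siRNA drawn above control siRNA. The pairs nearly coincide except for Men1, at 12.9 and 9.83 RPKM, and Psip1 lies far above the others.

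The partners of MLL1 and MLL2 differed in opposite directions. Men1 on chromosome 19 was at 12.9 RPKM in the Set1a siRNA library and 9.83 RPKM in the control siRNA library, a ratio of 1.31 (1.08 to 1.59) from 247 and 195 reads. Psip1 on chromosome 4, the most abundant of the 10, was at 55.5 RPKM with Set1a siRNA and 60.7 RPKM with control siRNA, a ratio of 0.913 (0.842 to 0.990) from 1133 and 1286 reads. These were the 2 members whose counting intervals left out 1, as did those of 23.4% of all genes, a share near 2 of 10. Many of those genes were at lower levels than the members, and the share among genes of like level was not taken. The ratio of Men1 to Kmt2a was 2.06 with Set1a siRNA and 1.52 with control siRNA, a factor of 1.36 (1.09 to 1.69). For Men1 to Kmt2b the factor was 1.33 (1.06 to 1.67). Psip1 to Men1 was 4.30 with Set1a siRNA and 6.18 with control siRNA, a factor of 0.696 (0.564 to 0.857). The pairs with Men1 were chosen after its value was seen.

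Men1 was listed as 4 transcripts, which share most of their sequence, so they are not 4 measurements. NM_001168488 was at 13.8 RPKM with Set1a siRNA and 10.3 RPKM with control siRNA, NM_001168489 at 14.1 and 10.3 RPKM, NM_001168490 at 12.9 and 9.55 RPKM, and NM_008583 at 12.9 and 9.83 RPKM, in the same order of libraries. The ratios were 1.35, 1.37, 1.36 and 1.31, and no transcript stood apart from the others. NM_008583, with the most reads, stands for the gene here and has the lowest of the 4 ratios.

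Both genes that flank Men1 were also higher with Set1a siRNA. Cdc42bpg, on one side, was at 9.59 RPKM in the Set1a siRNA library and 7.90 RPKM in the control siRNA library, a ratio of 1.21 (1.04 to 1.42). Map4k2, on the other side, was at 3.79 RPKM with Set1a siRNA and 1.77 RPKM with control siRNA, a ratio of 2.14 (1.55 to 2.99) from 120 and 58 reads. The annotation shows no gene overlapping Men1. Whether the 3 differences share a source was not tested. Ttc39b, which lies beside Psip1, was at 9.13 RPKM with Set1a siRNA and 11.7 RPKM with control siRNA, a ratio of 0.780 (0.694 to 0.876), and Snapc3, which overlaps Psip1, was at 11.2 RPKM and 14.2 RPKM in that order, with the Set1a siRNA level 0.791 times the control (0.604 to 1.03). Some other flanking genes had ratios close to that of their member. Atp5l, beside Kmt2a (0.968), had 0.973 (0.869 to 1.09). Galnt11, beside Kmt2c (0.965), had 0.931 (0.731 to 1.19), and Rhebl1, beside Kmt2d (0.937), had 0.972 (0.722 to 1.31). Others differed from their member in direction or size. On the other side of Kmt2d, Prkag1 had 1.14 (0.909 to 1.42). On the other side of Kmt2c, Cct8l1 had 0.346 (0.0602 to 1.38) from 3 and 9 reads. Both flanks of Pagr1a (0.936) were higher, Mvp with 1.07 (0.841 to 1.35) and Prrt2 with 1.31 (0.687 to 2.53). Zbtb32, beside Kmt2b, was at 4.91 RPKM with Set1a siRNA and 7.28 RPKM with control siRNA, a ratio of 0.675 (0.473 to 0.956), where Kmt2b had 0.986. Beside Ncoa6, which was lower, Trp53inp2 had a ratio of 1.39 (0.988 to 1.97) and Ggt7 one of 5.18 (1.10 to 48.6) from 10 and 2 reads. As the treatment of strand is not given in the sources used here, reads of Psip1 and Snapc3 in their overlap cannot be told apart.

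**Figure D2:**
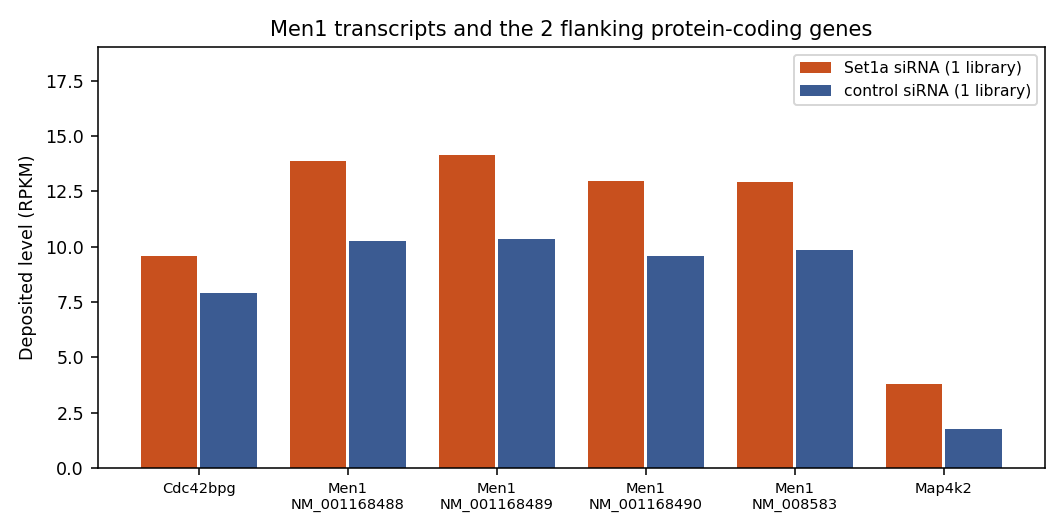
Bars give the deposited level in RPKM of the 4 Men1 transcripts and of the protein-coding genes on either side, with Set1a siRNA left of control siRNA and 1 library each. All 6 pairs are higher with Set1a siRNA, and the widest ratio is that of Map4k2, at 3.79 and 1.77 RPKM.

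The 4 partners specific to MLL3 and MLL4 were each lower within counting error. Ncoa6 on chromosome 2 was at 11.4 RPKM in the Set1a siRNA library and 12.7 RPKM in the control siRNA library, a ratio of 0.901 (0.798 to 1.02) and the lowest fold of the 10 genes. Its second listed transcript was at 8.82 RPKM with Set1a siRNA and 9.69 RPKM with control siRNA, a ratio of 0.910. The X-linked Kdm6a was at 12.7 RPKM with Set1a siRNA and 13.8 RPKM with control siRNA, a ratio of 0.925 (0.810 to 1.06).

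Paxip1 on chromosome 5 was at 17.5 RPKM in the Set1a siRNA library and 17.8 RPKM in the control siRNA library, a ratio of 0.985 (0.885 to 1.10). Pagr1a, whose protein binds the Paxip1 product, was at 14.4 RPKM with Set1a siRNA and 15.4 RPKM with control siRNA, a ratio of 0.936 (0.734 to 1.19) from 131 and 145 reads, the fewest of the family. A difference within the Pagr1a interval was not detectable at this depth. Summed, the 4 partners came to 56.1 RPKM with Set1a siRNA and 59.7 RPKM with control siRNA, a ratio of 0.941. Against the sum of Men1 and Psip1 this made 0.821 with Set1a siRNA and 0.846 with control siRNA, a factor of 0.971. Most of the sum of Men1 and Psip1 was Psip1.

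The gene 1700030K09Rik was at 3.98 RPKM in the Set1a siRNA library and 3.90 RPKM in the control siRNA library, a ratio of 1.02 (0.732 to 1.43) from 74 and 75 reads. It lay at a lower level than all 10 MLL genes. Cherp, which overlaps it, was at 28.1 RPKM with Set1a siRNA and 21.3 RPKM with control siRNA, and reads in their overlap cannot be told apart.

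The group was set against the 11788 genes whose mean over both libraries reached 1 RPKM. All 10 genes were above that floor in both libraries. With 1 RPKM added to each value, 0 of the 10 reached 2-fold in either direction, a size reached by 1.18% of all genes, and 0 reached 1.5-fold, which 4.44% of all genes did. Past 1.2-fold was 1 of the 10, Men1, against 26% of all genes. A counting interval entirely below 1 was found for 1 member, Psip1, against 11.2% of all genes, and one entirely above 1 for 1 member, Men1, against 12.1%. These shares are close to or below those of all genes above the floor, many of them at lower levels than the members. With a floor of 5 RPKM the 2-fold share was 0.530%. The shares for the other rules were not taken at that floor.

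A log2 fold below 0 was found for 9 of the 10 genes, against 48.8% of all genes. The log2 folds ranged from -0.14 for Ncoa6 to 0.36 for Men1, with a median of -0.07, against a median of 0.0066 over all genes and quartiles of -0.14 and 0.15. With 1700030K09Rik in place of Pagr1a, 8 of 10 were lower and the median was -0.04. Among the 7922 genes that averaged 5 RPKM or more, the fold of Men1 was exceeded by 404 (5.10%), and 23.7% lay below Ncoa6.

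**Figure D3:**
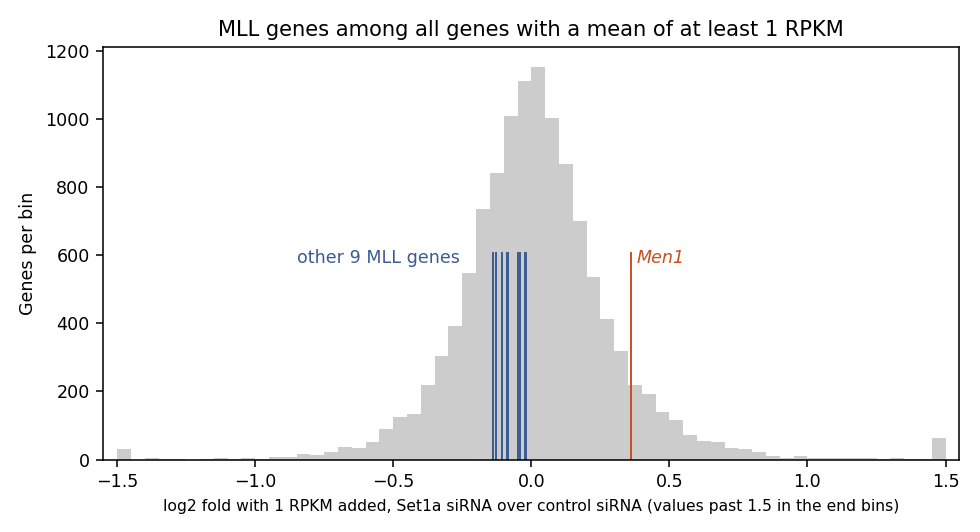
Grey bars count genes by log2 fold (1 RPKM added, Set1a siRNA over control siRNA) among 11788 genes, and vertical lines mark the 10 MLL genes. Men1 lies at 0.36, and the other 9 lie between -0.14 and -0.02, inside the central part of the distribution.

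Base composition moved with fold in these libraries. Genes whose transcript held at least 55% G and C had a median log2 fold of 0.09 (2971 genes), while genes of at least 5000 nucleotides had a median of -0.00055 (2066 genes). Men1, at 58.8%, belongs to the first class. Kmt2b at 59.1%, Pagr1a at 58.9% and Kmt2d at 58.4%, which were lower, also belong to it. With a trend in G and C content and length removed, Men1 had a log2 fold of 0.26, Kmt2b of -0.11, Pagr1a of -0.15 and Kmt2d of -0.10. Kmt2a and Kmt2c then came to 0.0069 and 0.01, so that 7 of the 10 were lower, against 49.7% of all genes. The part of base composition in the Men1 difference, and in those of the other genes named in this report, was not tested.

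The order of levels, compared per length, was nearly the same in both libraries. Psip1 stood first, at percentile 91.5 of all genes above the floor with Set1a siRNA and 92.3 with control siRNA, and its interval of 52.3 to 58.8 RPKM with Set1a siRNA (57.5 to 64.2 RPKM with control siRNA) did not meet that of Paxip1, which came next. Paxip1, Pagr1a, Kdm6a, Ncoa6, Kmt2b and Kmt2c followed in that sequence in both, each overlapping its neighbour's counting interval. Kmt2d and Kmt2a came last in both, and each was separated from the gene before it. Men1 was the gene that changed place, number 4 of 10 with Set1a siRNA and number 8 of 10 with control siRNA. Its interval was 11.3 to 14.6 RPKM with Set1a siRNA and 8.50 to 11.3 RPKM with control siRNA.

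The core subunits shared with SET1, counted here together with Hcfc1, were 5 genes with a median log2 fold of -0.09, 4 lower and 1 higher. Wdr5, the WD40 scaffold that docks the methyltransferase, was at 72.6 RPKM in the Set1a siRNA library and 83.0 RPKM in the control siRNA library, a ratio of 0.874 (0.812 to 0.940). Rbbp5 had a ratio of 0.928 (0.811 to 1.06), Ash2l of 0.936 (0.874 to 1.003), Dpy30 of 0.942 (0.835 to 1.06) and Hcfc1, a host cell factor that also associates with MLL1, of 1.08 (1.01 to 1.15). The 4 genes of WDR5, RBBP5, ASH2L and DPY30 were each lower, as were 48.8% of all genes. Of these 4, the interval of Wdr5 left out 1, while those of Rbbp5, Ash2l and Dpy30 included it. Over all genes, many of them at lower levels, 23.4% had an interval that left out 1. On the SET1 side, with 3 of 4 genes lower, Wdr82 had a ratio of 0.867 (0.798 to 0.941), close to that of Setd1a, while Bod1l had 0.917 (0.831 to 1.01) and Cxxc1 1.07 (0.897 to 1.27). The core genes, at 23.4 to 114 RPKM with Set1a siRNA and 25.2 to 121 RPKM with control siRNA, were all more abundant than the methyltransferase genes that they serve.

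**Figure D4:**
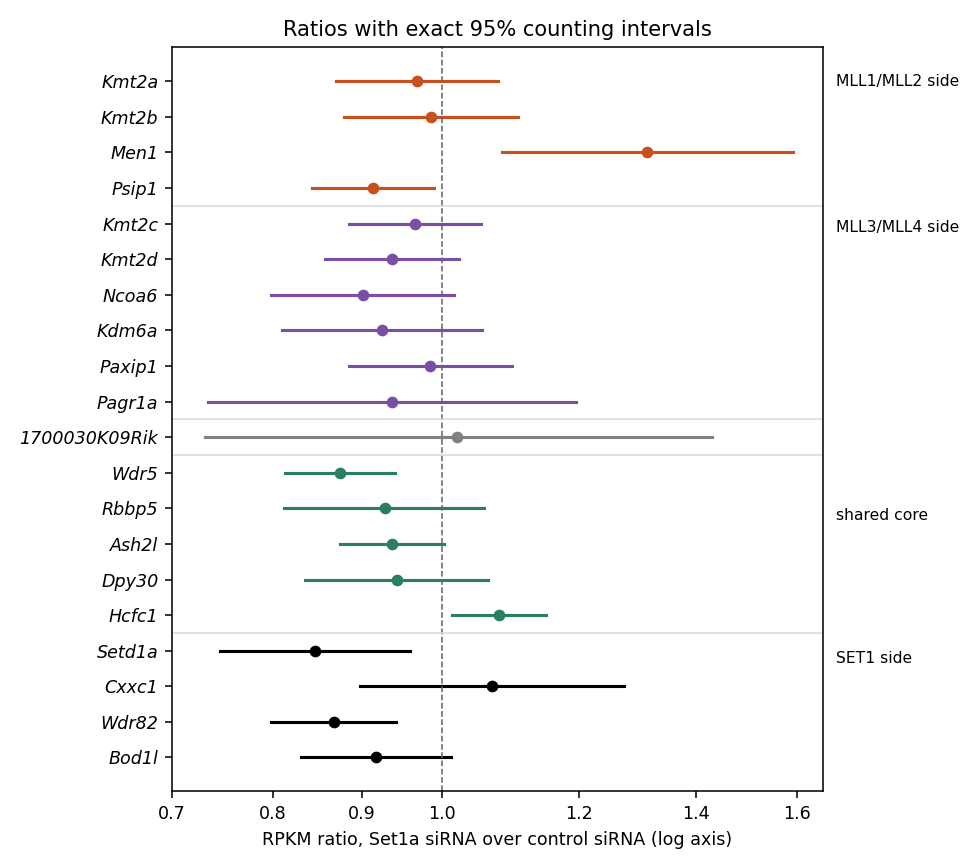
Points give the RPKM ratio of the Set1a siRNA library over the control siRNA library on a log axis, and bars give exact 95% counting intervals. Among the MLL genes the bars of Men1 (1.08 to 1.59) and Psip1 (0.842 to 0.990) leave out 1, as do those of Wdr5, Hcfc1, Setd1a and Wdr82 below.

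Genes that resemble members by sequence showed no common direction. Of 7 paralogs, 6 were above the floor, 4 of them higher and 2 lower, with a median log2 fold of 0.06. Hdgfl2, the closest relative of Psip1, was at 36.7 RPKM with Set1a siRNA and 32.0 RPKM with control siRNA. Its ratio was 1.15 (1.01 to 1.30), in the opposite direction to Psip1. The Hdgfl2 transcript held 58.4% G and C and that of Psip1 42.5%. The part of base composition in this contrast was not tested. Setd5 had a ratio of 1.06 (0.986 to 1.14), Hdgf of 0.946 (0.885 to 1.01), and Uty, the Y-linked relative of Kdm6a, of 0.888 (0.553 to 1.42). Among 4 genes of MLL1-associated proteins, Jund, a transcription factor that binds menin, was at 17.6 RPKM with Set1a siRNA and 12.6 RPKM with control siRNA, a ratio of 1.40 (1.12 to 1.75). The remaining 3 had intervals that include 1: Tasp1, the protease that cleaves MLL1 and MLL2, at 0.903 (0.615 to 1.32), Kat8 at 0.919 (0.679 to 1.24) and Hcfc2 at 1.21 (0.827 to 1.77).

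Known targets of MLL1, menin or MLL2 were taken as a list made up mostly of Hox genes. Of its 18 genes, 14 were below the floor, namely all the listed Hox genes and Cdkn2c. None of these 14 was above 0.567 RPKM, and 7 Hox genes were listed at 0 in both libraries. The 4 above the floor were not Hox genes. Meis1 was at 0.996 RPKM with Set1a siRNA and 1.27 RPKM with control siRNA, a ratio of 0.786 (0.431 to 1.42). Pbx3 had a ratio of 0.821 (0.577 to 1.16), Cdkn1b, the cell cycle inhibitor gene regulated by menin in endocrine cells, of 0.904 (0.777 to 1.05), and Magohb, a gene known to depend on MLL2 in mouse embryonic stem cells, of 1.30 (0.638 to 2.67) from 20 and 16 reads. No interval of these 4 left out 1.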

How the data were processed

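Transcript levels were compared between 1 Set1a siRNA library and 1 control siRNA library. The deposited RPKM values carry no header; the unit was inferred because value times transcript length moves in steps of 1 read. Per the submitters' processing notes, the authors used CASAVA, TopHat, TopHat2 2.0.12 and SAMtools 0.1.16 with build mm9. The counting program, strand setting and rule for shared reads are not stated in the labels or notes used here, and these decide how reads of isoforms and overlapping genes are assigned.

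Symbols came from a GRCm38.p6 RefSeq table and GENCODE M21 (27957 of 28430 transcripts), and lengths from GENCODE M21. Depth was read from the step of 1 read. Whole reads and a whole transcript length that give both deposited values were found for 84.9% of transcripts detected in both libraries and for 7 of the 10 MLL genes; for Kmt2c, Ncoa6 and Paxip1 reads were rounded. For each gene the most read transcript was used. Ratios are those of deposited RPKM, with exact Clopper-Pearson 95% intervals; intervals of levels are exact Poisson ones. Log2 folds used RPKM + 1, so changes of low genes are understated. The floor was 1 RPKM on the mean of both libraries. With 1 library per group no test was made. Members and lists were chosen with earlier results of these data known. Named were all members, the core and SET1 subunits, and up to 2 highest and 2 lowest folds of other lists; flanking genes were named after their values were seen. Read recovery and intervals were tested on simulated data. Pseudocounts, floors, scaling, transcript choice and a trend in base composition and length were varied. Scripts used Python 3.11.15, numpy 2.4.6, pandas 2.3.3 and scipy 1.17.1.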

Additional observations from a re-analysis of the deposited data

How the results depend on the processing

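Men1 stayed higher and Psip1 lower in all 7 alternatives run for each, with log2 folds of 0.26 to 0.42 for Men1 and -0.14 to -0.10 for Psip1. Among the 10 genes and 1700030K09Rik, the single genes for which alternatives were run, no value moved outside its counting interval. The median of the 10 genes ranged from -0.09 with the base composition and length trend removed to -0.04 with 1700030K09Rik in place of Pagr1a, both settings chosen after seeing the data. Scaling by the median of ratios (a factor of 0.995) or without the 50 most abundant genes (1.002) left 9 of the 10 lower. The number of members past the size rule, 0 at 2-fold, was 1 at 1.2-fold and 2 with a counting interval that excludes 1. The share of all genes past it, 1.18%, was 0.530% with a floor of 5 RPKM, 0.600% for transcripts of at least 200 nucleotides, 4.44% at 1.5-fold, 26.0% at 1.2-fold and 23.4% with a counting interval that excludes 1. The last 3 differ by construction, since they ask for smaller differences. For the others the cause was not tested. Among the 10 genes, Pagr1a had the fewest reads. No paired analysis was possible because there was 1 library for each siRNA. The spread between cultures is unknown for every gene.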

Other observations

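Genes of MLL fusion partners, which are joined to MLL1 by translocations in leukaemia, diverged. Counted together with Dot1l, they made 8 genes, of which 5 were higher and 3 lower, with a median log2 fold of 0.03. Aff1, a scaffold of the super elongation complex, was at 17.9 RPKM in the Set1a siRNA library and 23.5 RPKM in the control siRNA library, a ratio of 0.759 (0.698 to 0.826). Dot1l, the histone H3 lysine 79 methyltransferase gene, was at 15.5 RPKM with Set1a siRNA and 12.3 RPKM with control siRNA, a ratio of 1.26 (1.12 to 1.41). Mllt6 was at 28.2 RPKM with Set1a siRNA and 23.1 RPKM with control siRNA, a ratio of 1.22 (1.12 to 1.32), and Mllt3 had a ratio of 0.781 (0.534 to 1.14). Aff4, the paralog of Aff1, had a ratio of 0.977 (0.915 to 1.04) and was named after its value was seen.

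Enhancer coactivators, which work beside MLL3 and MLL4, were counted together with the demethylase gene Kdm1a and were evenly divided. Of these 10 genes, 5 were higher and 5 lower, with a median log2 fold of 0.0072. Ncoa3 had a ratio of 1.11 (1.03 to 1.21), Med1 of 1.08 (0.955 to 1.23), Kdm1a, a demethylase of histone H3 lysine 4, of 0.962 (0.879 to 1.05) and Ncoa1 of 0.941 (0.802 to 1.11). Of the 10, the interval of Ncoa3 left out 1.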
